A study of Mus musculus with 3072 samples.

Results

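The interferon-stimulated gene module was a list of 37 mouse genes that cells switch on after sensing an interferon. All 37 have a row in the table of raw counts, which holds 29474 genes. The list was divided by known roles into 29 type I members, 7 interferon-gamma GTPase members and Irf1, which both kinds of interferon induce. The members were taken by name and not by their values in these cells. They were described across 6 groups of single microglia. Each member was asked 2 things: whether its reads came from many cells or from a few, and whether the type I members and the GTPase members moved together.

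Interferons are secreted warning signals. Type I interferons bind the receptor pair IFNAR1 and IFNAR2, and the kinases JAK1 and TYK2 then set off the assembly of the complex ISGF3, which contains STAT2 and IRF9. ISGF3 binds the interferon-stimulated response element (ISRE) and switches on antiviral genes such as Ifit1, Isg15, Oas1a and Rsad2. Interferon-gamma binds IFNGR1 and IFNGR2, and signalling from this receptor acts on genes through the gamma-activated site (GAS), inducing Irf1 and the GTPases of the GBP and IRG families, which attack the compartments of intracellular parasites and bacteria. The sets overlap, since many genes answer both signals. In brain tissue with amyloid plaques a small number of microglia carry a strong type I signature.

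The cells were sorted as living CD11b+ single cells from male mice, and each well was made into 1 SmartSeq2 library, a method that copies whole polyadenylated transcripts and has no molecular barcodes. APP/PS1 mice carry the APPswe and PS1dE9 transgenes and form amyloid plaques, and ApoeKO (Apoe null) mice lack apolipoprotein E, a lipid carrier. APP/PS1-ApoeKO mice came from crossing APP/PS1 with a C57BL/6 Apoe null breeder. The 1713 cells fell into 6 groups: APP/PS1 cortex at 17 months (18.16% of the cells), APP/PS1 hippocampus at 17 months (15.94%), APP/PS1-ApoeKO cortex at 18 months (9.87%), APP/PS1-ApoeKO hippocampus at 18 months (18.74%), C57BL/6 cortex at 18 months (19.03%) and C57BL/6-ApoeKO cortex at 18 months (18.27%). The labels name no animal, so each group counted as 1 sample. No test between groups was possible and no p-value is given. Intervals are 95% and cover counting error alone. Reads of SmartSeq2 are copies and not independent molecules, so intervals on reads are too narrow. Genotype, age and sequencing lane cannot be told apart between the APP/PS1 and the APP/PS1-ApoeKO groups, or between APP/PS1 and C57BL/6 cortex. Genotype and lane cannot be told apart between APP/PS1-ApoeKO and C57BL/6-ApoeKO cortex. The C57BL/6 and C57BL/6-ApoeKO groups shared both of their lanes, as did the 2 tissues of APP/PS1.

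Apoe itself was read at 13406 reads per 1000000 reads (RPM) in APP/PS1 cortex, 11919 in APP/PS1 hippocampus and 485 in C57BL/6 cortex, against 0.0669, 0.745 and 2.96 RPM in APP/PS1-ApoeKO cortex, APP/PS1-ApoeKO hippocampus and C57BL/6-ApoeKO cortex. The summed reads ranged from 74767907 to 241536311 a group and the median cell from 442917 to 765703 reads. Because of this gap, shares of cells with a read were taken after each cell was thinned at random to 100000 reads, which left out 1 cell of APP/PS1 hippocampus, 2 of APP/PS1-ApoeKO hippocampus and 5 of C57BL/6-ApoeKO cortex and kept 1705. The 9 microglia markers summed to between 43398 and 54675 RPM. Summed markers of monocytes lay between 3.21 and 28.3 RPM and those of neutrophils at or under 0.596 RPM.

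Promoters of 7 members are shown because interferon-activated factors act on genes of both kinds through the ISRE and the GAS. They are the 250 bases before the start of transcription, read 5′ to 3′ on the strand of the gene, from RefSeq on GRCm38.p6. Capitals mark the ISRE core, which is GAAA, any 2 bases and GAAA again, and the GAS palindrome TTCNNNGAA, where N is any base. Both strands were searched, so that an ISRE core on the other strand reads TTTC, any 2 bases and TTTC. Overlapping ISRE cores run together as 1 stretch of capitals. Irgm2 (chr11:58214727-58214976, plus strand), Igtp (chr11:58199306-58199555, plus strand) and Gbp7 (chr3:142530086-142530335, plus strand) encode GTPases. Ifit3 (chr19:34583279-34583528, plus strand), Ifit3b (chr19:34607707-34607956, plus strand), Isg15 (chr4:156200819-156201068, minus strand) and Xaf1 (chr11:72301379-72301628, plus strand) are type I members. Gbp7 and Isg15 were added after their values were seen.
Irgm2: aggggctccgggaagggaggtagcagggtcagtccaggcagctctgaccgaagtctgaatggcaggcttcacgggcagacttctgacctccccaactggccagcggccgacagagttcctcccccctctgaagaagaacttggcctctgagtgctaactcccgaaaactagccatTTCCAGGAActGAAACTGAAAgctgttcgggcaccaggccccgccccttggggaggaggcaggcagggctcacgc
Igtp: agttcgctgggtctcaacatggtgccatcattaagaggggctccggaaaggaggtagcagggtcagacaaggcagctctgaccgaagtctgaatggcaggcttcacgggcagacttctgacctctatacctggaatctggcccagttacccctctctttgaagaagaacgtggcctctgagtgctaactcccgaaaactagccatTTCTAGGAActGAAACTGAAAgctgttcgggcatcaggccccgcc
Gbp7: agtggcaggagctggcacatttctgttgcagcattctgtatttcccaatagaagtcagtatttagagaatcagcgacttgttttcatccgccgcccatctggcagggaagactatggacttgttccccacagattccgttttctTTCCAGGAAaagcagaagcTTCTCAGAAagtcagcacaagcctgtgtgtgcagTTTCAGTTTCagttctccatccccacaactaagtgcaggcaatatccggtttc
Ifit3: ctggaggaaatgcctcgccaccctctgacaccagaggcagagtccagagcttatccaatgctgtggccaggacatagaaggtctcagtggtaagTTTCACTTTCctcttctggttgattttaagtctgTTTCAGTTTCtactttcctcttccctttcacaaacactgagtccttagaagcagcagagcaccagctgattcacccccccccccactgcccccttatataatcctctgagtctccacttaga
Ifit3b: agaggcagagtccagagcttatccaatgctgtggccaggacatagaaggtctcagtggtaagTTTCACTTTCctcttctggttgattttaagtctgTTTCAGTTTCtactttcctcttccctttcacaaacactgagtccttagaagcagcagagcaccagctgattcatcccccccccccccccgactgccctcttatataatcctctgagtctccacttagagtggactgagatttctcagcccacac
Isg15: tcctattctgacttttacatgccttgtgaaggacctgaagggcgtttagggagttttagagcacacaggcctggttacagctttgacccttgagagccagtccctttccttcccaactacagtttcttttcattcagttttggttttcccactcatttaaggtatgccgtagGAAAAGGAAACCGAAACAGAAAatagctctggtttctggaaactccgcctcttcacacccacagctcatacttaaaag
Xaf1: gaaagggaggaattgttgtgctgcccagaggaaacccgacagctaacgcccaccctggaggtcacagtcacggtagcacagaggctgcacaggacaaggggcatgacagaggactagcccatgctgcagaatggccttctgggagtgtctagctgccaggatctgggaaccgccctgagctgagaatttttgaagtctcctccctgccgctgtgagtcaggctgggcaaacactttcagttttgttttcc

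Irgm2 and Igtp each hold 1 GAS match and 1 ISRE core separated by 2 bases, within a longer stretch that reads alike in both. Gbp7 holds 2 GAS matches and 1 ISRE core. Ifit3 and its neighbour Ifit3b hold 2 ISRE cores each at the same spacing. Placed with a shift of 32 bases, the Ifit3 and Ifit3b windows were identical at 86.2% of the bases compared. These windows lie before the counted transcripts, whose likeness was not measured. Whether the authors' counting divided reads between Ifit3 and Ifit3b is not known. Isg15 holds 3 overlapping ISRE cores and Xaf1 holds neither motif. Promoters were found for 29 of the 37 members. The ISRE core was present in 6 of 6 GTPase members and 7 of 22 type I members, against 936 of 27025 genes with a promoter, or 3.46%. The GAS motif was present in 3 of 6 GTPase members, 3 of 22 type I members and the promoter of Irf1, against 8.13% of all genes. Of the 14 type I members that fall below in the few-cell class, 6 held an ISRE core (Ifit1, Ifit3, Ifit3b, Isg15, Oas1a and Rsad2), and of the 8 read in more cells 1 did (Stat2). A match is a description of these letters and not a bound site.

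How many cells carried each member set the first division. A member was called many-cell where a read was found in at least 25% of thinned cells, averaged over the 6 groups, few-cell where it was found in under 10%, and between otherwise. By this rule 1 of 37 members was many-cell, 14 were between and 22 were few-cell. All genes were not classed in this way, so these counts do not show a trait particular to the members. The many-cell member was Irgm2, a GTPase that keeps other GTPases of its family off the cell's own membranes, with a mean share of 32.7%. None of the 29 type I members was many-cell, 10 were between and 19 were few-cell, while the GTPase members divided into 1, 3 and 3. With limits of 30% and 5% in place of these, 17 of 37 members and 14 of 29 type I members were few-cell. Next below the upper limit stood Irf9 at 19.4%. At the lower limit Ifih1 stood at 10.5% inside, and Ifi27l2a at 9.59% and Phf11d at 9.39% outside.

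**Figure D1:**
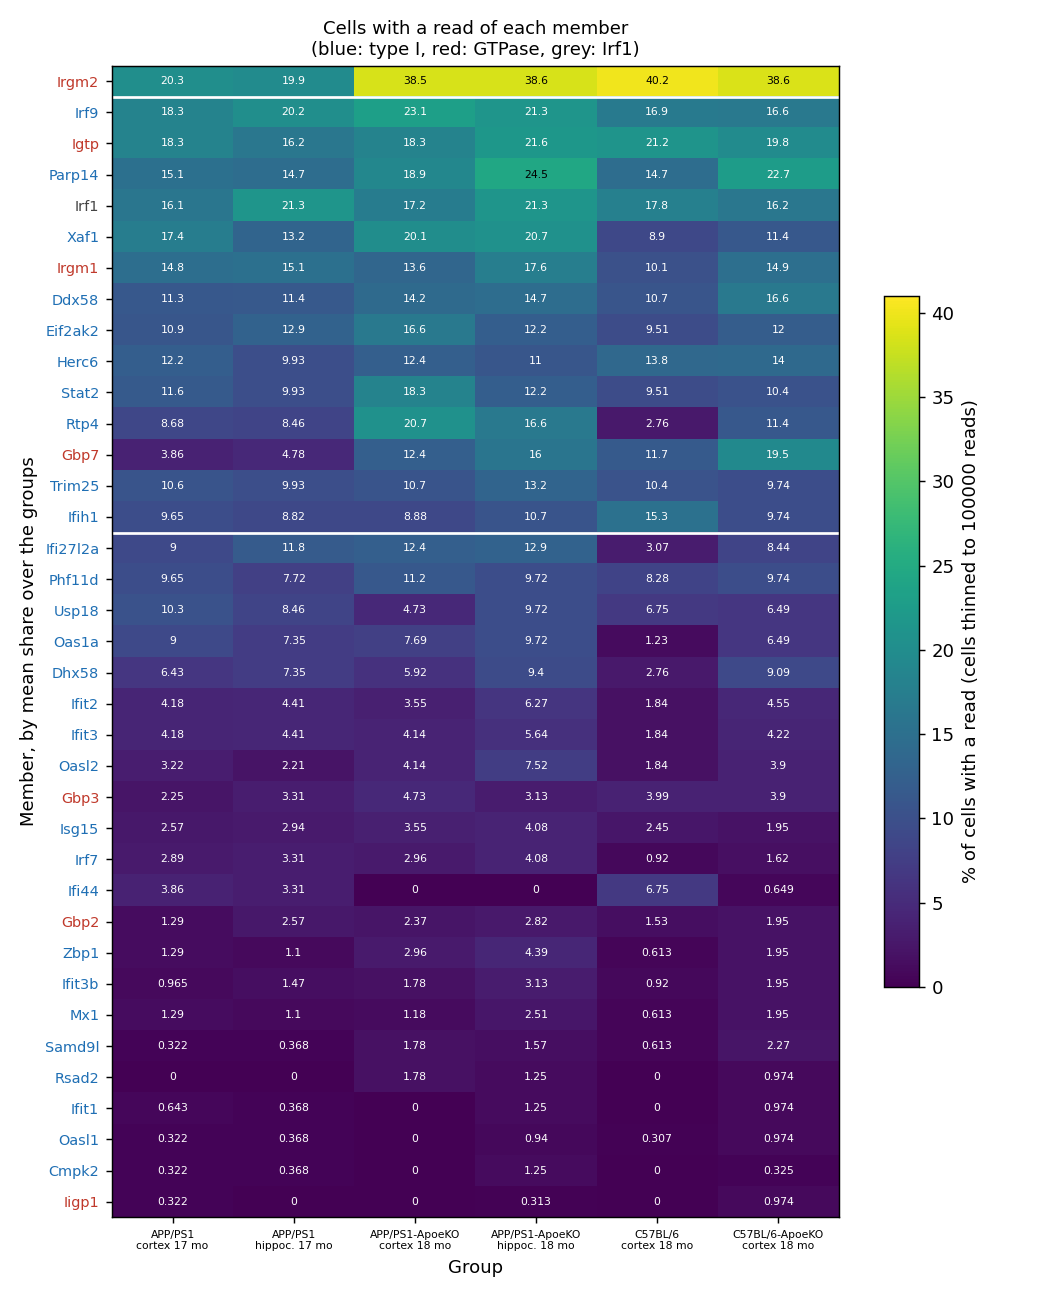
Percent of thinned cells with a read of each of the 37 members (rows, ordered by their mean) in each of the 6 groups (columns); white lines mark the class limits of 25% and 10%. Irgm2 stands alone at the top, near 20% in both APP/PS1 groups and between 38.5% and 40.2% in the other 4, and the lower rows hold members read in under 5% of cells.

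The cells behind each total were counted next. Their number cannot exceed the number of cells with a read, so it is tied to the class and is no separate support for it. For Irgm2, 50% of the reads of a group lay in 10 to 24 cells. For the between members the median was 7.5 cells. For the few-cell members it was 2 cells, and in 87.4% of the pairs of few-cell member and group with more than 3 reads, 5 or fewer cells held 50% of the reads. The level of a few-cell member in a group of this size is therefore the level of a handful of cells. Oasl2, an antiviral member of the 2′-5′ oligoadenylate synthetase family, had 41.2 RPM in C57BL/6-ApoeKO cortex, with 50% of its reads in 1 cell.

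In 6 of 37 members the highest group was under 2 times the lowest in RPM. The same count was not made over all genes, so it does not show whether 6 is many or few. These were Igtp, Irf1, Ddx58, Trim25, Phf11d and Usp18. Irf1, the transcription factor downstream of both receptors, lay between 74.7 and 101.6 RPM and was read in 16.1% to 21.3% of cells. Igtp, another IRG GTPase, lay between 65.5 and 85.1 RPM and between 16.2% and 21.6% of cells. Ddx58, which encodes the RNA sensor RIG-I, lay between 43.9 and 61.9 RPM. Trim25, the ubiquitin ligase that activates RIG-I, lay between 18.2 and 30.9 RPM.

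Among the GTPase members, Irgm2 and Gbp7 were low in both APP/PS1 groups that carry Apoe and higher in the other 4. The median percent of reads from ribosomal RNA was highest in the same 2 groups, at 11.8% and 10.9% against 6.35% to 9.5% in the other 4, and its part in the result was not tested. Irgm2 (chr11:58199618-58222782 in GENCODE M21, protein coding) was read in 20.3% of cells of APP/PS1 cortex (15.9% to 25.2%) and 19.9% of APP/PS1 hippocampus (15.3% to 25.1%). It was read in 38.5% of APP/PS1-ApoeKO cortex (31.1% to 46.2%), 38.6% of APP/PS1-ApoeKO hippocampus (33.2% to 44.1%), 40.2% of C57BL/6 cortex (34.8% to 45.7%) and 38.6% of C57BL/6-ApoeKO cortex (33.2% to 44.3%). The intervals of the 2 low groups do not overlap those of the other 4. Without thinning, Irgm2 was read in 23.8% and 24.2% of cells of the low groups and 41.4% to 45.7% in the other 4. The plate numbers of the labels gave 17.0% to 24.2% in the low groups and 31.3% to 50% in the others, again without overlap. How many of all genes separate these groups in this way was not counted, so the gap is not shown to be particular to Irgm2. Each of the 2 low groups was sequenced in the same 2 lanes, which held no other analysed group, so the lanes and these groups cannot be told apart. GENCODE places the start of Irgm2 inside the region of Igtp on the same strand, and the sources do not say how the counting treated reads in overlapping genes, so the split of reads between these 2 genes is uncertain.

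The level of Irgm2 followed its share. It was 48.3 RPM in APP/PS1 cortex and 38.5 in APP/PS1 hippocampus, against 116.7, 129.4, 117.8 and 110.7 RPM in APP/PS1-ApoeKO cortex, APP/PS1-ApoeKO hippocampus, C57BL/6 cortex and C57BL/6-ApoeKO cortex. In APP/PS1-ApoeKO against APP/PS1 it was 2.42-fold higher in cortex (2.35 to 2.49) and 3.36-fold higher in hippocampus (3.27 to 3.46). In C57BL/6-ApoeKO against C57BL/6 the ratio was 0.940 (0.924 to 0.957). In APP/PS1 against C57BL/6 cortex Irgm2 was 2.44-fold lower (2.38 to 2.5).

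Gbp7 (chr3:142530342-142550149, protein coding), a guanylate-binding protein, was read in 3.86% of cells of APP/PS1 cortex and 4.78% of APP/PS1 hippocampus. The other groups had 12.4% in APP/PS1-ApoeKO cortex, 16% in APP/PS1-ApoeKO hippocampus, 11.7% in C57BL/6 cortex and 19.5% in C57BL/6-ApoeKO cortex. Without thinning the range was 5.14% to 5.49% in the low groups and 13.02% to 21.1% in the other 4. The intervals of the 2 low groups ended at 6.64% and 8.03%. Those of C57BL/6 cortex and APP/PS1-ApoeKO cortex began at 8.38% and 7.86%, so APP/PS1 hippocampus overlapped APP/PS1-ApoeKO cortex. Over plate numbers the groups overlapped too, since 1 plate number of C57BL/6 cortex had 1.92%. Gbp7 was 3.13-fold higher in APP/PS1-ApoeKO than in APP/PS1 cortex (2.99 to 3.27) and 3.15-fold higher in hippocampus (3.02 to 3.28), and 1.54-fold higher in C57BL/6-ApoeKO than in C57BL/6 (1.5 to 1.58).

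The remaining GTPase members did not share this order. Irgm1, which like Irgm2 regulates its family, was read in 14.8%, 15.1%, 13.6%, 17.6%, 10.1% and 14.9% of cells, in the order APP/PS1 cortex, APP/PS1 hippocampus, APP/PS1-ApoeKO cortex, APP/PS1-ApoeKO hippocampus, C57BL/6 cortex, C57BL/6-ApoeKO cortex. Gbp3 was read in 2.25% to 4.73% of cells and Gbp2 in 1.29% to 2.82%. Iigp1 had 1.74 RPM at most and was the member that did not reach the minimum of 1 RPM averaged over the groups.

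**Figure D2:**
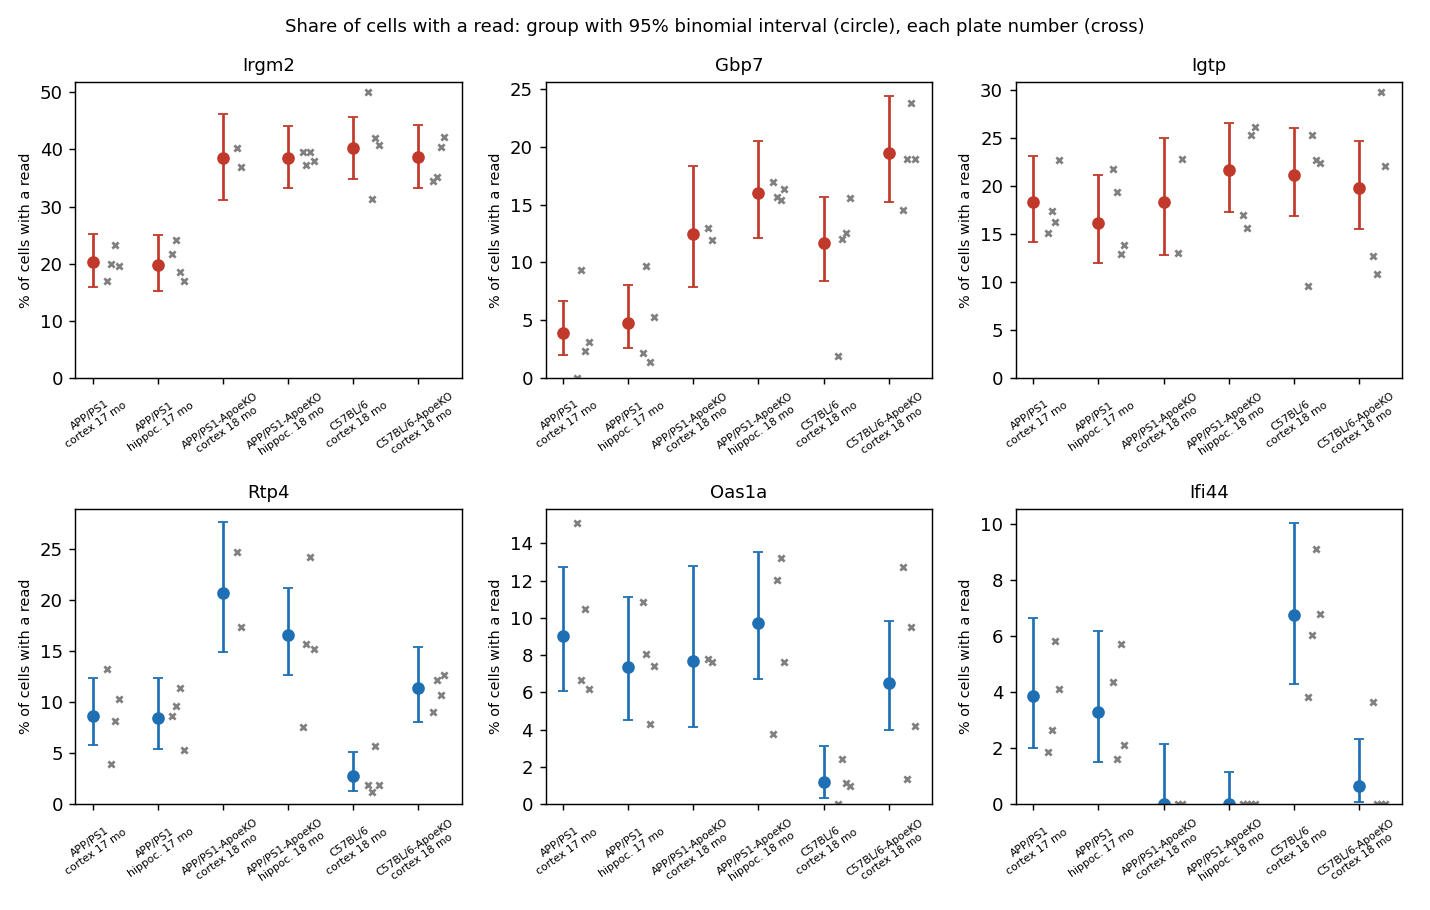
Percent of thinned cells with a read of Irgm2, Gbp7, Igtp, Rtp4, Oas1a and Ifi44 in each group (circle, 95% exact binomial interval) and in each plate number within it (crosses). Irgm2 and Gbp7 are low in both APP/PS1 groups, Igtp lies between 16.2% and 21.6%, Rtp4 and Oas1a are lowest in C57BL/6 cortex, and Ifi44 is at 0 in both APP/PS1-ApoeKO groups.

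Of the 29 type I members, 15 had their lowest share of cells in C57BL/6 cortex alone and not in the APP/PS1 groups. The others were lowest in other groups or tied, and Irf9, Parp14, Herc6, Phf11d, Usp18, Trim25 and Isg15 were lowest elsewhere. The same count was not made over all genes, so a lower share of genes in general in C57BL/6 cortex was not measured. Rtp4, a transport chaperone of membrane receptors, was read in 2.76% of cells of C57BL/6 cortex (1.27% to 5.18%). It was read in 11.4% of C57BL/6-ApoeKO cortex (8.04% to 15.4%), 8.68% of APP/PS1 cortex (5.80% to 12.4%), 8.46% of APP/PS1 hippocampus (5.44% to 12.4%), 20.7% of APP/PS1-ApoeKO cortex (14.9% to 27.6%) and 16.6% of APP/PS1-ApoeKO hippocampus (12.7% to 21.2%). The interval of C57BL/6 cortex lay below all others, and those of the APP/PS1-ApoeKO groups lay above those of the APP/PS1 groups. How many of all genes have intervals apart in this way was not counted. Over plate numbers these groups overlapped, since 1 plate number of APP/PS1-ApoeKO hippocampus had 7.55% and 1 of APP/PS1 cortex 13.2%, and 1 of C57BL/6 cortex had 5.68% and another of APP/PS1 cortex 4%. Further cells of APP/PS1-ApoeKO cortex, whose depth the labels do not give, stood at 13.9%. Without thinning, 3.37% of C57BL/6 cortex cells had an Rtp4 read, and 8.68% to 21.9% in the other groups. The levels were 12.3 RPM in C57BL/6 cortex, 50.1 in C57BL/6-ApoeKO cortex, 35.9 and 33.3 in APP/PS1 cortex and hippocampus, and 100.3 and 95 in APP/PS1-ApoeKO cortex and hippocampus. Rtp4, Rsad2 and Samd9l were the type I members at least 2-fold higher in all 3 comparisons of an ApoeKO group with its counterpart, and of these Rtp4 alone had 10 or more cells with a read in the higher group of each. The share of all genes higher in all 3 was not counted, so these members have no background to be set against.

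Oas1a, which makes the second messenger that activates RNase L, was read in 1.23% of C57BL/6 cortex cells (0.335% to 3.11%) and in 6.49% to 9.72% of cells in the other 5 groups. Ifi27l2a, a small interferon-induced protein, was read in 3.07% of C57BL/6 cortex cells and 8.44% to 12.9% elsewhere. Dhx58, which encodes the RNA sensor LGP2, was read in 2.76% and in 5.92% to 9.40%. All 3 were lowest in C57BL/6 cortex. Xaf1, a proapoptotic interferon target, was read in 8.90% of C57BL/6 cortex cells, 11.4% of C57BL/6-ApoeKO cortex and 13.2% to 20.7% of the 4 groups with amyloid. The sensor Ifih1 (MDA5) was the reverse case, with 15.3% in C57BL/6 cortex and 8.82% to 10.7% elsewhere.

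Among the effectors, Ifit2 and Ifit3, which bind foreign RNA, were read in 1.84% of C57BL/6 cortex cells each and in 3.55% to 6.27% elsewhere. Isg15, the ubiquitin-like modifier, was read in 1.95% to 4.08% of cells at 0.710 to 2.18 RPM. Usp18, the protease that removes ISG15 and damps the receptor, was read in 4.73% to 10.3% of cells. The interferon regulatory factor Irf7, which amplifies type I interferon, was at 3.18 and 4.13 RPM in the 2 groups without amyloid and 16.2 to 28.2 RPM in the 4 with it, where 3 or fewer cells held 50% of its reads.

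The few-cell members Ifi44 and Rsad2 had 0 reads in all analysed cells of some groups. Ifi44 (chr3:151730922-151749960, protein coding), interferon-induced protein 44, had 0 reads in all analysed cells of APP/PS1-ApoeKO cortex and APP/PS1-ApoeKO hippocampus. A count of 0 over the thinned cells allows a share of up to 1.78% in the first and 0.940% in the second. It was read in 12 cells (3.86%) of APP/PS1 cortex, 9 (3.31%) of APP/PS1 hippocampus, 22 (6.75%) of C57BL/6 cortex and 2 (0.649%) of C57BL/6-ApoeKO cortex. The levels were 20.6, 24.5, 32.5 and 4.56 RPM. In reads, set against a floor of 3 over a group, Ifi44 was at least 1239-fold lower in APP/PS1-ApoeKO than in APP/PS1 hippocampus. That ratio counts copied reads, and 9 thinned cells of APP/PS1 hippocampus carried the gene. By cells the values were 3.31% there against a share of up to 0.940% in APP/PS1-ApoeKO hippocampus. In C57BL/6-ApoeKO it was 7.12-fold lower than in C57BL/6 (6.65 to 7.64). Further cells of APP/PS1-ApoeKO cortex, for which the labels give no depth and which were not used above, had an Ifi44 read in 2 cells (1.21%). APP/PS1-ApoeKO cortex was thus not at 0 in all its cells, and with these cells its log2 ratio to APP/PS1 cortex was -3.04.

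Rsad2, which encodes the antiviral enzyme viperin, had the opposite pattern at a lower level. It had 0.0106 RPM in APP/PS1 cortex and 0 reads in APP/PS1 hippocampus and C57BL/6 cortex. It stood at 5.51 RPM in APP/PS1-ApoeKO cortex, 5.81 in APP/PS1-ApoeKO hippocampus and 4.13 in C57BL/6-ApoeKO cortex. In each of these 3 groups 1 cell held 50% of the reads, and 1.78%, 1.25% and 0.974% of cells had a read. Among the interferon-high cells described below, Rsad2 was read in 2 of 4, 2 of 13 and 2 of 7 in the ApoeKO groups and in 0 of 8, 0 of 10 and 0 of 2 in the others.

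Of the study's 7 comparisons, 3 set an ApoeKO group against the group with Apoe and share no cells with each other. The other 4, of amyloid and of tissue, reuse those groups. A member was counted as higher or lower from a 2-fold difference in RPM, with more than 3 reads in the higher group. Medians are of log2 ratios with 0.5 RPM added. Beside each count stands the percent of all 12703 genes with at least 1 RPM on average that passed the same limit. In APP/PS1 cortex, APP/PS1-ApoeKO against APP/PS1, 7 of 29 type I members were higher and 5 lower, and 3 of 6 GTPase members were higher and 0 lower. The background was 18.2% higher and 11.8% lower. The medians were 0.35 for type I members, 0.93 for GTPase members and 0.19 for all genes. In hippocampus, 6 type I members were higher and 2 lower and 3 of 6 GTPase members higher and 0 lower, with 14.4% and 9.98% as background and medians of 0.21, 0.75 and 0.07.

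In C57BL/6 cortex, C57BL/6-ApoeKO against C57BL/6, 14 of 29 type I members were higher and 3 lower (Ifi44, Isg15 and Ifih1), while 1 of 6 GTPase members was higher and 0 lower. The background was 12.1% higher and 9.64% lower. The medians were 0.73 for type I members, 0.25 for GTPase members and 0.04 for all genes. With all plate numbers together, the larger median was that of the GTPase members in both APP/PS1 comparisons and that of the type I members in C57BL/6. Within single plate numbers this order did not always hold. The spread between animals could not be had, since no animal is named. With plate number 4 left out of both groups the type I median in APP/PS1 cortex was -0.32, and without plate number 2 the GTPase median there was 1.71. The analysed APP/PS1-ApoeKO cortex cells came from plate numbers 3 and 4 alone. Leaving out plate number 4 thus left them with 1 plate number, and leaving out plate number 2 removed APP/PS1 cells only. In hippocampus the type I median was 0.66 without plate number 2, 0.042 without plate number 3 and 0.061 without plate number 4, and the GTPase median was 0.46 without plate number 1 and 1.35 without plate number 2. In C57BL/6 cortex the type I median was 0.74 to 1.13 with each plate number left out. Within plate numbers 1, 2, 3 and 4 it was 1.56, 0, 0.14 and 1.19 there, against GTPase medians of 0.58, 0.10, 0.29 and 0.27. In hippocampus the type I medians within them were 0, -0.28, 1.04 and 0.64, and the GTPase medians 3.13, 0.17, 0.97 and 1.09. In APP/PS1 cortex, plate numbers 3 and 4 gave -0.23 and 0.68 for type I and 0.95 and 1.30 for GTPase members.

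In APP/PS1 against C57BL/6 cortex, 12 of 29 type I members were higher and 1 lower, and 0 of 6 GTPase members were higher and 3 lower (Gbp3, Gbp7 and Irgm2), with a background of 9.82% higher and 12.8% lower. The medians were 0.23, -0.81 and -0.10. In APP/PS1-ApoeKO against C57BL/6-ApoeKO cortex, 7 type I members were higher and 8 lower and 1 GTPase member was higher and 0 lower, with 12.3% and 12.2% as background and medians of 0.26, -0.09 and 0.05. In hippocampus against cortex of APP/PS1, 3 type I members and 1 GTPase member were higher and 0 lower, against 9.42% and 10.3%. In hippocampus against cortex of APP/PS1-ApoeKO, 6 type I and 0 GTPase members were higher and 0 lower, against 11.3% and 13.2%. Without plate number 2 the GTPase median of APP/PS1 against C57BL/6 was -1.62. In APP/PS1-ApoeKO against C57BL/6-ApoeKO the type I median was -0.12 without plate number 4 and 0.024 without plate number 2. The GTPase median was 0.11 without plate number 3. As APP/PS1-ApoeKO cortex held plate numbers 3 and 4 alone, leaving out plate number 2 removed C57BL/6-ApoeKO cells only. All 6 type I members higher in APP/PS1-ApoeKO hippocampus were few-cell. The 2 tissues of APP/PS1-ApoeKO were sequenced in different lanes, so tissue and lane cannot be told apart there. In both amyloid comparisons the cortex groups were also sequenced in different lanes, and APP/PS1 differed from C57BL/6 in age too. Amyloid genotype cannot be told apart from these.

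A difference in summed reads can come from more cells with a read or from more reads in the same number of cells. A member was counted as different in its share where the share was at least 2-fold apart and 10 or more cells of the higher group had a read. In APP/PS1 cortex 1 type I member (Rtp4) and 1 GTPase member (Gbp7) were higher in share in APP/PS1-ApoeKO, and 2 type I members (Usp18 and Ifi44) were lower, against 2.69% and 4.93% of all genes. With the further cells of APP/PS1-ApoeKO cortex the members higher were Rtp4, Mx1, Zbp1, Gbp7 and Irgm2 and the member lower was Ifi44 alone, against 5.05% and 2.68%. In hippocampus 3 type I members (Ifit3b, Oasl2 and Zbp1) and Gbp7 were higher and 0 members lower, against 3.92% and 2.36%. In C57BL/6 cortex 7 type I members (Ifit2, Ifit3, Oasl2, Oas1a, Rtp4, Ifi27l2a and Dhx58) were higher in C57BL/6-ApoeKO and Ifi44 was lower, against 3.02% and 2.5%. In APP/PS1 against C57BL/6 cortex 6 type I members (Ifit2, Ifit3, Oas1a, Rtp4, Ifi27l2a and Dhx58) were higher and Gbp7 was lower, against 3.32% and 3.08%. The last 2 comparisons share the C57BL/6 cells, in which these 6 members were low.

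For members with 10 or more cells with a read in both groups, the log2 ratio of mean thinned reads divides exactly into the log2 ratio of the shares and that of the level in cells with a read. For Gbp7 the share gave 1.69 and the level -0.03 in APP/PS1 cortex, and 1.74 and 0.05 in hippocampus. For Irgm2 the share gave 0.93 and the level 0.11 in cortex, and 0.96 and 0.65 in hippocampus. For Rtp4 it was 1.25 and 0.05 in cortex, and 0.97 and 0.51 in hippocampus. In these 3 members the share was the larger term in both tissues. Xaf1 in APP/PS1 cortex was the contrary case, with 0.21 from the share and 1.15 from the level. For Parp14, an ADP-ribosyltransferase, the terms in cortex were also larger for the level, 0.97 of 1.29.

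**Figure D3:**
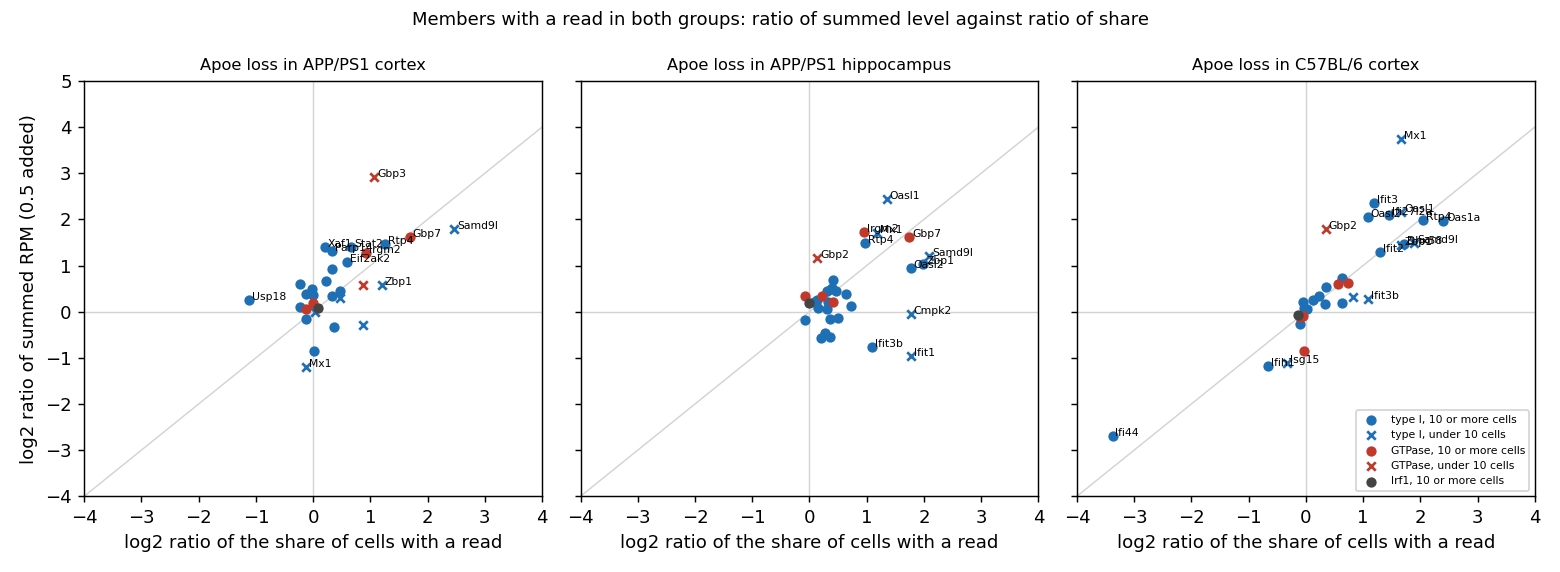
Log2 ratio of summed RPM (vertical) against log2 ratio of the share of cells with a read (horizontal) for members with a read in both groups, in the 3 comparisons of ApoeKO with Apoe-carrying groups; circles have 10 or more cells with a read in at least 1 group, crosses fewer, and the grey diagonal marks equal ratios. Gbp7 and Rtp4 lie near the diagonal in APP/PS1 cortex, and Xaf1 lies above it.

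Many type I members were read together in a small number of cells. The median cell had a read of 1 type I member, 415 of 1705 cells had none, and the highest cell had 24 of 29. A cell with a read of 10 or more type I members is called interferon-high here, which is a range of a count and not a cell type. There were 44, with 7 cells at exactly 10 members and 8 cells at 9. They were 8 cells of APP/PS1 cortex (2.57%, 1.12% to 5.01%), 10 of APP/PS1 hippocampus (3.68%, 1.78% to 6.66%) and 4 of APP/PS1-ApoeKO cortex (2.37%, 0.649% to 5.95%). They were 13 cells of APP/PS1-ApoeKO hippocampus (4.08%, 2.19% to 6.87%), 2 of C57BL/6 cortex (0.613%, 0.0744% to 2.20%) and 7 of C57BL/6-ApoeKO cortex (2.27%, 0.918% to 4.63%). C57BL/6 cortex was the lowest, and its interval overlapped those of the other 5 groups. That of APP/PS1-ApoeKO hippocampus began at 2.19% and so met it only at the edge. With 8 or more members as the limit, C57BL/6 cortex had 0.920% and APP/PS1-ApoeKO hippocampus 5.96%, and the other 4 groups had 2.92% to 4.41%.

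**Figure D4:**
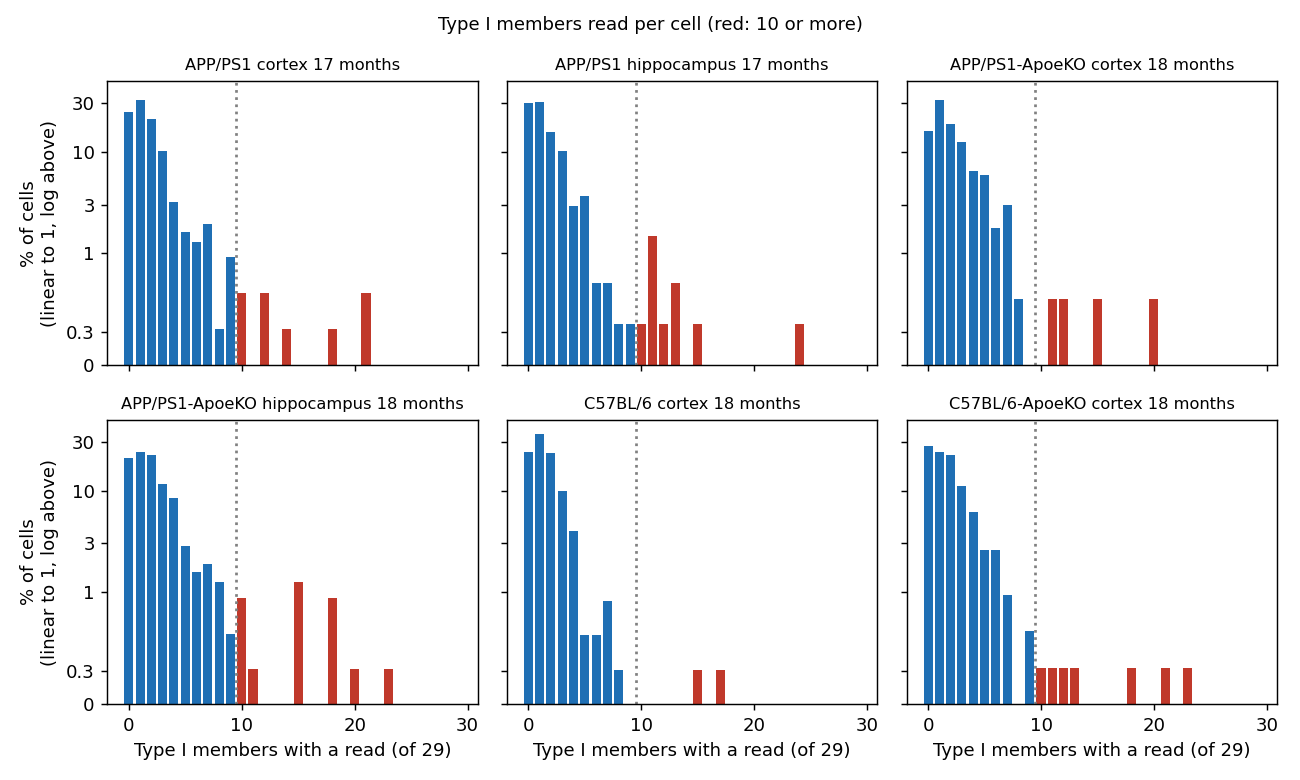
Percent of thinned cells (vertical, linear up to 1 and logarithmic above) by the number of the 29 type I members with a read (horizontal) in each group; red bars are cells with 10 or more. Most cells lie between 0 and 4 members, and a thin tail reaches 17 members in C57BL/6 cortex and 20 to 24 in the other groups.

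These 44 cells, 2.58% of the cells, held 25.9% of the type I reads and 9.96% of the GTPase reads. The cells were picked by their type I members, so a raised percent of type I reads follows in part from that choice. The gap between these 2 percents is thus not a result about the lists. The share of the type I reads was 13.9% in C57BL/6 cortex and 35.5% in APP/PS1 hippocampus. When each type I member was left out of the count that picked the cells, Rtp4 was still read in 33 of 39 cells with 10 or more of the others and in 8.94% of the rest. Ifit3 was read in 75% and 2.34%, Irf7 in 59.5% and 1.14%, and Oasl1 in 9 of 44 and in 0 of 1661. Irf9, whose product is part of ISGF3, was read in 47.4% and 18.4%, the smallest ratio among the type I members together with Parp14, Ifih1 and Ddx58, all of the between class. Phf11d, a few-cell member, was read in 40.5% and 8.48%. Cmpk2, Ifit1, Ifit3b, Irf7, Mx1, Oasl1, Rsad2 and Zbp1 each had more cells with a read inside this small set than outside it. The between members were read in these cells and in many others.

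The GTPase members took no part in choosing these cells. Igtp was read in 52.3% of the interferon-high and 18.5% of the other cells, Irgm1 in 52.3% and 13.4%, and Gbp2 in 15.9% and 1.69%. Irgm2, at 50% and 32.1%, Gbp7, at 18.2% and 11.3%, and Gbp3, at 4.55% and 3.43%, differed less. Of the reads of Irgm2 and Gbp7, 6.44% and 5.56% lay in the interferon-high cells. Irf1 was read in 38.6% and 17.8%. Across cells, Spearman's rho between summed type I and summed GTPase reads was 0.13 in APP/PS1 cortex, 0.09 in APP/PS1 hippocampus, 0.16 in APP/PS1-ApoeKO cortex, 0.25 in APP/PS1-ApoeKO hippocampus, 0.08 in C57BL/6 cortex and 0.20 in C57BL/6-ApoeKO cortex. These describe cells that share their group's lanes and hold many zeros.

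The differences in share were then counted again without the 44 cells, a setting chosen after the values were seen. In C57BL/6-ApoeKO against C57BL/6 cortex, 4 of the 7 type I members stayed 2-fold higher in share (Oas1a, Rtp4, Ifi27l2a and Dhx58), and Ifit2, Ifit3 and Oasl2 did not. Ifi44 stayed lower there. In APP/PS1 cortex, Rtp4 and Gbp7 stayed higher and Irgm2 was added, while Usp18 stayed lower and Ifi44 no longer passed. In hippocampus Oasl2 and Gbp7 stayed higher, Ifit3b and Zbp1 no longer passed and Rtp4 was added. In APP/PS1 against C57BL/6 cortex Oas1a, Rtp4, Ifi27l2a and Dhx58 stayed higher and Ifit2 and Ifit3 did not, Gbp7 stayed lower, and Ifi44 and Irgm2 were added as lower.

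The rest of the pathway was read from lists of ligands, receptors with their JAK and STAT partners, sensors and other GTPases. Of the interferon genes, 4 have a row in the table, Ifnb1, Ifna16 and Ifnz had 0 reads in all groups, and Ifnk had 0.134 RPM in APP/PS1-ApoeKO cortex alone. Of 13 receptor and JAK-STAT genes, 0 were 2-fold higher and 1 (Socs1) lower in APP/PS1-ApoeKO than in APP/PS1 cortex, 1 (Jak2) higher and 0 lower in hippocampus, and 1 (Socs3) higher and 0 lower in C57BL/6-ApoeKO than in C57BL/6. Ifnar1 lay between 114.4 and 209.02 RPM and Ifngr1 between 991 and 1397. Of the 14 sensor and IRF genes that reached 1 RPM, 0 were higher or lower in APP/PS1 cortex and in C57BL/6 cortex, and 2 were higher in APP/PS1 hippocampus, Mb21d1 (cGAS) and Tlr3. Adar, which is not a member and encodes an RNA editor with an interferon-inducible form, was read in 79.5% of the interferon-high and 29.2% of other cells. Ifnar1 was read in 27.3% and 28.4% and Ifnar2 in 63.6% and 67.6%.

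Of 13 other GTPases, 8 reached 1 RPM. Of these 3 were 2-fold higher and 3 lower in APP/PS1-ApoeKO than in APP/PS1 cortex (median 0.11), 4 higher and 2 lower in hippocampus (0.68), and 4 higher and 1 lower in C57BL/6-ApoeKO than in C57BL/6 (0.78). The 3 lower in APP/PS1 cortex were Gbp2b, Gbp8 and Tgtp2. The following were chosen after their values were seen. Gbp9 was at 7.18 and 13.6 RPM in APP/PS1 cortex and hippocampus, and at 38.1, 33.6, 17.4 and 37 RPM in APP/PS1-ApoeKO cortex, APP/PS1-ApoeKO hippocampus, C57BL/6 cortex and C57BL/6-ApoeKO cortex. Gm4951, an IRG GTPase, was at 2.06 and 1.17 RPM in the 2 APP/PS1 groups and at 23.9, 22.1, 10.6 and 12 RPM in the other 4. Both were lowest in the 2 APP/PS1 groups, as Irgm2 and Gbp7 were. Gm12250, also an IRG GTPase, was lowest there too but by little, at 6.67, 5.84, 7.81, 21.1, 7.20 and 29.2 RPM in the same order of groups. Tgtp2, a further GTPase of the IRG family, was read in 15 of 44 interferon-high cells and 14 of 1661 others.

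Markers of the interferon-high cells were those of microglia. Cx3cr1, Csf1r and P2ry12 were each read in 44 of 44, Tmem119 in 42 and Sall1 in 40. Of the monocyte markers Ly6c2 and Chil3 were read in 0 of 44 cells, Ccr2 in 1 and Plac8 in 4. Cd3e, Cd3d, Cd3g, S100a8 and S100a9 were read in 0. The median depth of the interferon-high cells before thinning lay between 376706 and 829406 reads a group and that of the others between 441136 and 771371.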

How the data were processed

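Single CD11b+ microglia were sequenced with a SmartSeq2 protocol, 1 library a well, per the labels' protocols. The authors deposited a table of raw counts per gene and cell, and the submitters' processing notes name featureCounts 1.5.1, the aligner STAR 2.5.2, the build mm10 and Seurat 2.3.1. Strand use is not stated. Of 1878 cells in the table, the 1713 with a depth in the labels were analysed, and their totals equalled the labels. The remaining cells entered 1 alternative. Other APP/PS1 groups of the labels were not analysed here. Counts were summed per group to reads per 1000000 reads. Ratios have exact conditional binomial intervals and shares exact binomial intervals (Clopper-Pearson). A group is 1 sample, so no test was run. Cells were thinned to 100000 reads without replacement (seed 1). DESeq2 median-of-ratios scaling was an alternative. Python 3.11.15, numpy 2.4.6, scipy 1.17.1 and pandas 2.3.3 were used, and the scripts were tested on simulated data. Motifs were searched in RefSeq promoters of GRCm38.p6, and gene positions are from GENCODE M21 on the same assembly. All 37 members could be named, and the pathway lists are given by counts and examples. By rule the promoters shown were those of the most widely read members and of Ifit3 and Ifit3b, and Irf9 and Ddx58, which hold 0 matches, were left out. The members and lists were chosen with earlier results of these data known.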

Additional observations from a re-analysis of the deposited data

Results flagged for a closer look

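In 10 cases the ratios of a member moved at least 2-fold in opposite directions under the same contrast in another setting. With 1 sample a group the difference was not tested, and all 10 belong to few-cell members. The value given is the log2 ratio in the setting named first minus that in the other. For loss of Apoe in APP/PS1 cortex against C57BL/6 cortex it was -6.50 for Ifit1, -4.42 for Oasl1, -4.94 for Mx1 and -4.54 for Cmpk2. For loss of Apoe in APP/PS1 cortex against APP/PS1 hippocampus it was -4.69 for Oasl1 and -2.92 for Mx1. For amyloid in cortex with against without Apoe it was 6.50 for Ifit1, 4.94 for Mx1, 4.54 for Cmpk2 and -3.77 for Gbp3. The 2 cortex contrasts are built from the same 4 groups, so the values for Ifit1, Mx1 and Cmpk2 repeat with the sign turned. Ifit1 was read in 0 thinned cells of APP/PS1-ApoeKO cortex, and Cmpk2 and Oasl1 had 0 reads there.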

How the results depend on the processing

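Values below are medians of log2 ratios unless named otherwise. Of 140 list medians under the alternatives run, 10 moved by more than the SD over plate numbers, and 8 more did so and changed sign. The others moved by less, which can still change the sign. The type I median of hippocampus against cortex in APP/PS1 went from 0.25 to -0.17 with a plate number left out. Of 490 alternative log2 ratios of single members, 42 moved by more and 1 called 2-fold difference changed sign, that of Oasl2 in C57BL/6-ApoeKO against C57BL/6 cortex, at -0.13 without interferon-high cells. Without the filter on low levels, which adds Iigp1, the GTPase median was 0.59 in APP/PS1-ApoeKO against APP/PS1 cortex and 0.59 in C57BL/6-ApoeKO against C57BL/6. Within single lanes, the GTPase median of C57BL/6-ApoeKO against C57BL/6 was -0.10 in 1 of 2, and that of hippocampus against cortex in APP/PS1 was 0.39 and -0.19. For APP/PS1-ApoeKO against C57BL/6-ApoeKO cortex the GTPase median was 0.048 without interferon-high cells and 0.076 with the further cells, and the type I median with the further cells 0.54. With each plate number left out in turn, the type I median for Apoe loss in APP/PS1 cortex ranged from -0.32 to 0.64. The GTPase median there ranged from 0.79 to 1.71. For APP/PS1-ApoeKO against C57BL/6-ApoeKO cortex these ranges were -0.12 to 0.61 and -0.24 to 0.11. In both, the APP/PS1-ApoeKO cortex cells came from plate numbers 3 and 4 alone. The GTPase median ranged from -1.62 to -0.56 for APP/PS1 against C57BL/6 cortex and from -0.071 to 0.18 for hippocampus against cortex in APP/PS1. Interferon-high cells made up 3.52% of cells at 8 or more type I members and 1.76% at 12 or more. The type I members with a 2-fold higher share were 4 in C57BL/6-ApoeKO cortex without interferon-high cells and 3 in APP/PS1-ApoeKO cortex with the further cells, both settings chosen after seeing the data. DESeq2 scaling shifted the median of all genes by -0.19 in APP/PS1-ApoeKO against APP/PS1 cortex, 0.13 in hippocampus against cortex of APP/PS1-ApoeKO and 0.10 in APP/PS1 against C57BL/6 cortex. The cause of these moves was not tested. No paired analysis was possible because each group is 1 sample, and the values within lanes and without plate numbers stand in its place. Each group is 1 sample, few-cell members rest on a few cells, and the precision of shares is set by the number of cells.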
